A study of Mus musculus with 9 samples.

Results

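Integrins and laminins were followed across dorsal root ganglia (DRG), lumbar spinal cord and hind paw skin of treated mice. The genes were taken by name: symbols that start with Itga or Itgb and a digit, the leukocyte and alpha-V integrins Itgad, Itgae, Itgal, Itgam, Itgav and Itgax, symbols that start with Lama, Lamb or Lamc and a digit, and Dag1, Nid1 and Nid2. Of 22609 genes in the files, 45 met this rule. The rule used no measured value, but the set was chosen with earlier results of these data known. They were 18 integrin alpha chains, 9 integrin beta chains, 5 laminin alpha, 3 laminin beta and 3 laminin gamma chains, 2 nidogens and dystroglycan, 41 in all. The other 4, Itgb1bp1, Itgb1bp2, Itgb1bp3 and Itgb3bp, are named after an integrin but are not integrin chains, and are described apart. All 45 passed the filter on low counts and were tested. Each tissue had 3 RNA sequencing libraries, 9 in all, from male C57 mice aged 8 to 12 weeks. Every mouse had received paclitaxel, a chemotherapy drug that stabilises microtubules, as 2 intraperitoneal injections of 2 mg/kg. They were further given a blocker of LTβR, the lymphotoxin-beta receptor, at 15 µg in the hind paw together with 15 µg intrathecally, and tissue was taken 6 days after the last paclitaxel dose. The titles put this antagonist on days 1 and 4, whereas the series text words its timing differently. The DRG were those of levels L3 to L5, paw skin was taken as punch biopsies, and both came from both sides. All groups shared this treatment, and mice without it are not analysed here, so each comparison below is between tissues and none measures an effect of a drug. Nothing in the labels says that libraries of a tissue came from separate mice. The p-values therefore measure the spread between these libraries only.

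Laminins are secreted as trimers of an alpha, a beta and a gamma chain and polymerise into the base layer of basement membranes, the sheets of matrix under epithelia and around Schwann cells, muscle fibres and vessels. Nidogens link laminin to collagen IV. Cells hold on to laminin through integrins, which are dimers of an alpha and a beta chain that also bind collagens, fibronectin or other cells, and through dystroglycan. In peripheral nerve, Schwann cells need a laminin with the Lama2 chain, and integrin and dystroglycan receptors for it, to sort and myelinate axons. In epidermis, a laminin with the chains Lama3 and Lamb3 anchors basal keratinocytes through the integrin pair Itga6 and Itgb4 at hemidesmosomes.

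The promoters of 3 genes are shown because they had the largest rises in paw over both other tissues among the integrin and laminin chains whose promoter could be printed from the RefSeq table. They are Lamb3 (chr1:193301744-193301993, plus strand), Itgb6 (chr2:60722604-60722853, minus strand) and Itga2 (chr13:114932101-114932350, minus strand), each as the 250 bases before the first listed gene start, from RefSeq on GRCm38.p6. The read counts themselves were made on mm9, whose coordinates are not used here. Capitals mark a match to the motif TGANNTCA.
Lamb3: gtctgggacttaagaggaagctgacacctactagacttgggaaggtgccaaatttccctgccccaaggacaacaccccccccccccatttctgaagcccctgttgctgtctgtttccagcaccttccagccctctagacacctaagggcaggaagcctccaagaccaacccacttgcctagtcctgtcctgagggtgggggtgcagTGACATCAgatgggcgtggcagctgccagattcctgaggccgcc
Itgb6: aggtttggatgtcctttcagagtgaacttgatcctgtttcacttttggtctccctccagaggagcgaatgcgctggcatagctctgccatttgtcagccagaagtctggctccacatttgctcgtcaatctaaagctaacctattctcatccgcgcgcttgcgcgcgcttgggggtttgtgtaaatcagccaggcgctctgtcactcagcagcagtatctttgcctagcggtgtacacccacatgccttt
Itga2: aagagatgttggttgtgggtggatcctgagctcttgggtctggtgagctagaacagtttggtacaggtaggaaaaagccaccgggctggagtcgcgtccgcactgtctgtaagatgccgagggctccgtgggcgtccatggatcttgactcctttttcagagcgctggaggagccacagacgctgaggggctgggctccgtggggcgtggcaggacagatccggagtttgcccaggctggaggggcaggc
The AP-1 motif TGANTCA, which reads the same on both strands, was searched in the window from 250 bases before to 50 bases after the start. None of the 3 windows held it, against 7.81% of 32851 windows of all genes, and 3 of the 32 windows of the 28 genes of the set with an entry did (Itgax, Itga9 and Itga3). The spaced form TGANNTCA, chosen after the sequences were seen, occurred once in the Lamb3 window, 44 bases before the start, against 14.1% of all windows and 1 of 32 windows of the set. These letter matches describe the windows and do not show that a factor binds there.

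The libraries held 15537545 to 23229724 reads on genes. Levels are given as CPM, the read count scaled to a common library size with TMM factors, and the floor of 3 reads per library is 0.134 to 0.185 CPM. The labelled tissues carried their markers. Summed over each list, sensory neuron genes stood at 3539 to 4204 CPM in DRG, oligodendrocyte genes at 1971 to 2449 CPM in spinal cord and keratinocyte genes at 34001 to 52926 CPM in paw, and no marker on these lists was at 0 reads in any tissue. Some libraries stood apart. In spinal cord 3 the 7 Schwann cell markers summed to 8533 CPM against 3097 and 3290 in spinal cord 1 and 2, and the 4 fibroblast markers to 674 CPM against 275 and 223. In spinal cord 1 the 5 marrow neutrophil markers summed to 419.6 CPM against 111 and 125. Among DRG libraries the 4 skeletal muscle markers summed to 509, 784 and 25.3 CPM, and in paw to 10347 to 13013 CPM. For the integrin and laminin genes taken by name, calls that were lost or arose with libraries left out are given with each gene. All other genes, among them the pathway lists further below, are given with all libraries only.

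**Figure D1:**
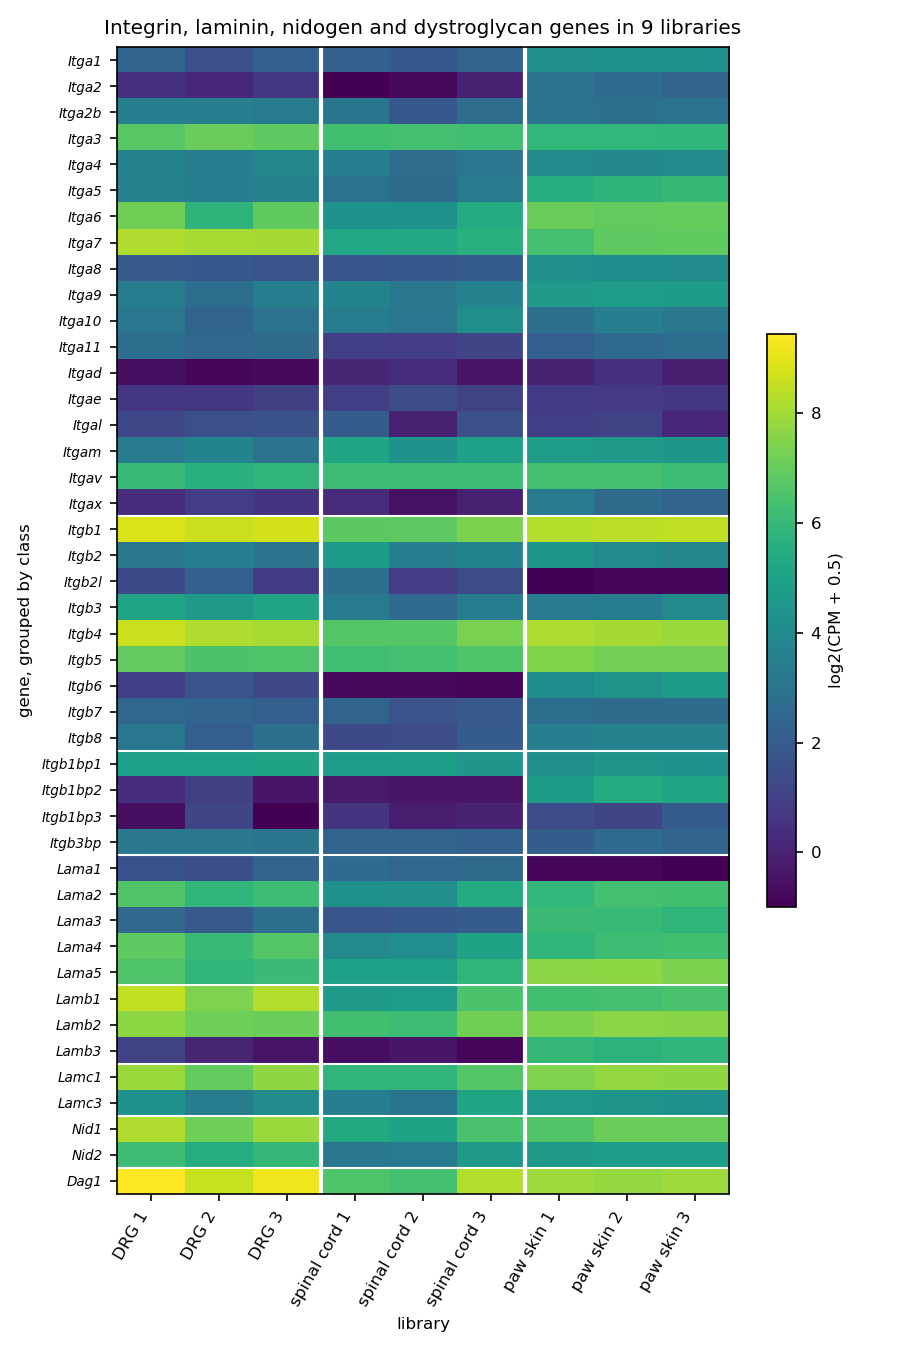
Level of 44 of the 45 genes (rows, grouped by class) in each of the 9 libraries (columns), as log2(CPM + 0.5) from dark (low) to bright (high). Lama3, Lamb3 and Itgb6 are bright only in the paw columns, Lama1 and Itgb2l are darkest there, and Dag1, Itgb1, Itga7, Lamb1 and Nid1 are brightest in DRG.

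Spinal cord was the tissue with the lowest levels for many of the 45 genes. A call means that edgeR's quasi-likelihood test, adjusted by Benjamini and Hochberg's method over the 16091 tested genes, gave a p under 0.05, and differences are log2 fold changes ± SE. Between DRG and spinal cord 27 of 45 (60%) were called higher in DRG, against 29.0% of all genes, and 6 (13.3%) lower, against 30.6%. The median log2 fold change was 0.86 over the set and −0.023 over all genes. Between paw and spinal cord 26 (57.8%) were called higher in paw, against 39.9% of all genes, and 4 (8.89%) lower, against 41.7%, with a median of 1.10 against −0.025. Between paw and DRG 18 (40%) were called higher in paw and 10 (22.2%) lower, against 39.7% and 40.8% of all genes, so the share of higher calls lay near the background, with a median of 0.34 against −0.019. The 3 libraries of each tissue did not overlap for 29 genes (64.4%) in DRG against spinal cord, where 64.5% of all tested genes did not, for 35 (77.8%) in paw against DRG, against 83.4%, and for 32 (71.1%) in paw against spinal cord, against 83.5%. These shares lay near or below the background and are no result about these genes. Of all genes, 59.6%, 80.5% and 81.6% were called in either direction in the comparisons. The comparisons share libraries, so they are not independent of each other.

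By order of tissues, 14 of the 45 (31.1%) were highest in paw and called against both other tissues, where 32.4% of all genes were. Another 7 (15.6%) were highest in DRG and called against both (15.9% of all genes). The paw and DRG shares lay near the background and are no result about these genes as a set. Only 1 (2.22%), Lama1, was highest in spinal cord and called against both (19.5% of all genes). For 9 genes (20%) spinal cord was called lowest and paw and DRG were not called apart, where 4.21% of all genes had this pattern. They were Itga4, Itga6, Itga11, Itgb4, Lama2, Lama4, Lamb2, Lamc1 and Nid1. For 4 genes (8.89%), Itgad, Itgam, Itgav and Itgb2, DRG was called lowest and paw and spinal cord were not called apart, against 3.60% of all genes. The tissues differ in their cells, and in whole tissue fewer cells of a type and less RNA per cell cannot be told apart.

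**Figure D2:**
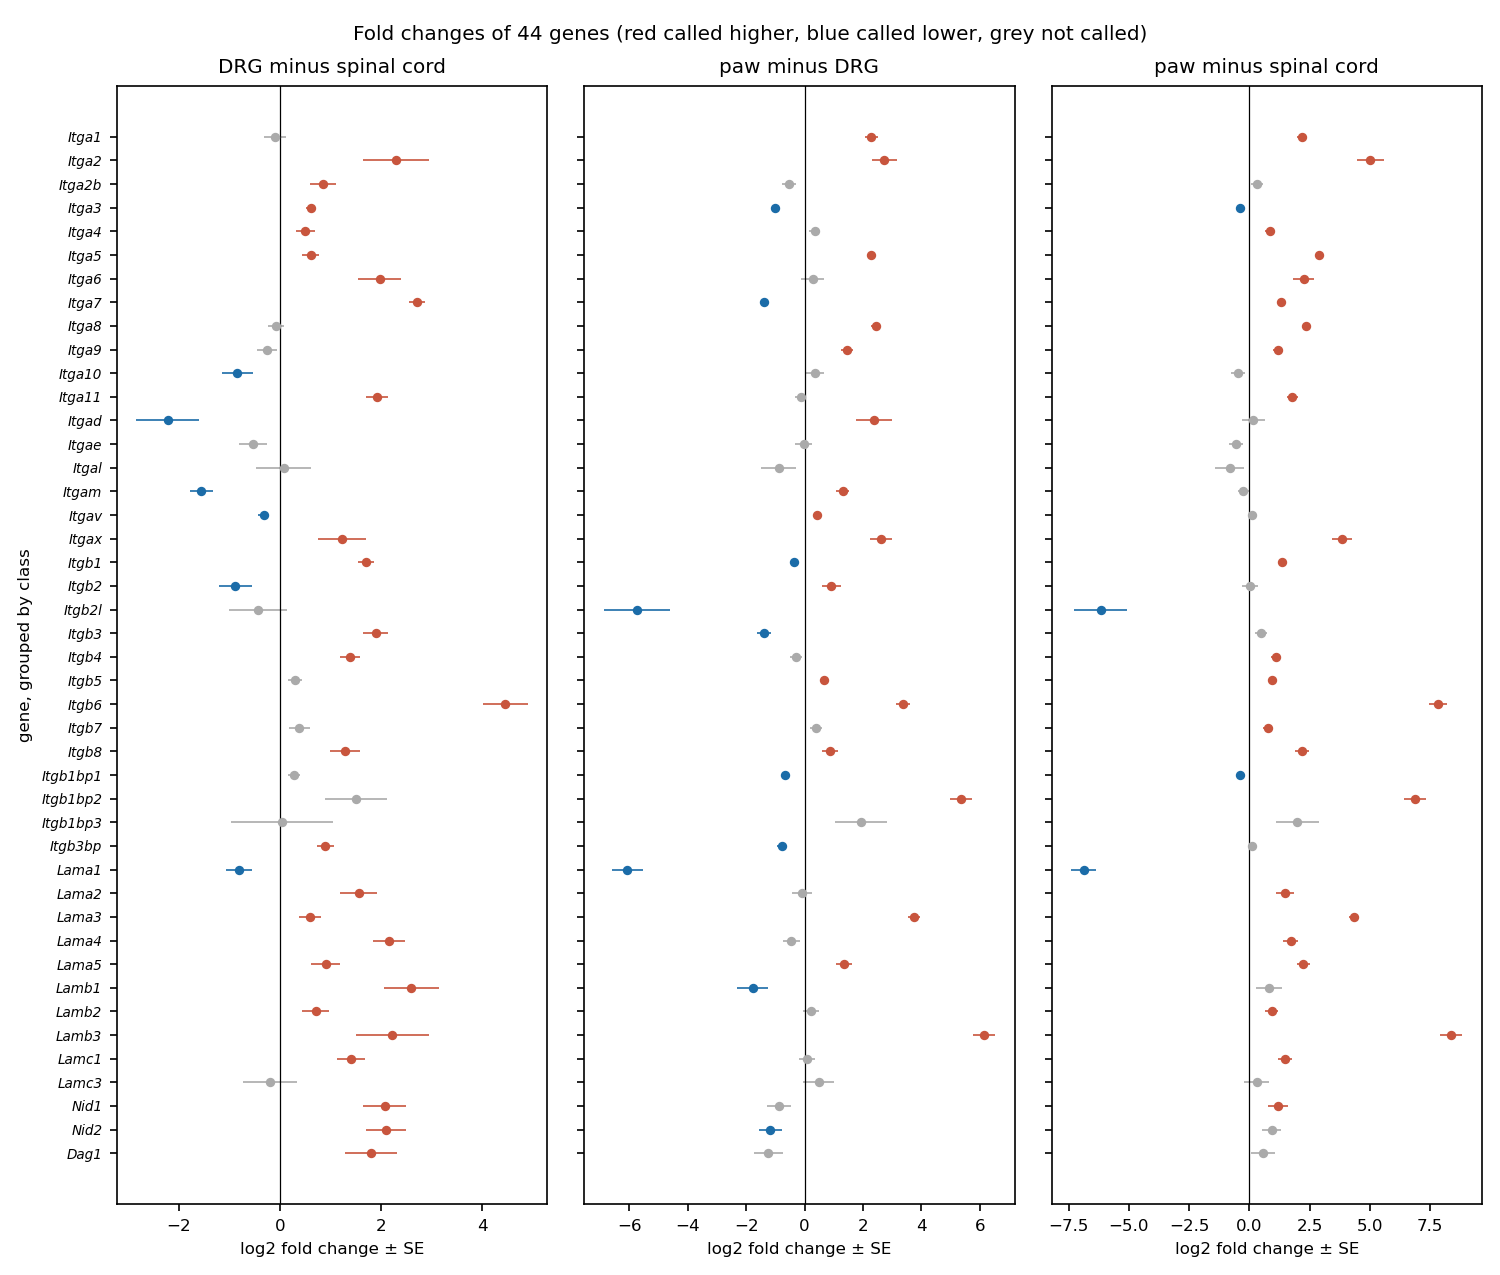
Log2 fold change ± SE of 44 of the 45 genes (rows, grouped by class) for DRG minus spinal cord, paw minus DRG and paw minus spinal cord, from edgeR on 3 libraries per tissue; red marks genes called higher, blue genes called lower and grey genes not called. The points of Lamb3 and Itgb6 reach 8.37 and 7.83 in paw over spinal cord, and 26 of 44 points are red in DRG over spinal cord.

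Lamb3 and Lama3, chains of a laminin of epidermis, were called highest in paw. Lamb3, the beta chain found in that laminin, had 1.56, 0.579 and 0.248 CPM in DRG libraries 1 to 3, 0.15, 0.28 and 0.0574 CPM in spinal cord and 62.1, 53.9 and 59.1 CPM in paw. The 3 paw libraries lay close together and far above every DRG and spinal cord library, where the gene had 52 and 10 reads in all. The rise was 6.15 ± 0.37 (adjusted p = 1.13e-07) over DRG and 8.37 ± 0.47 (adjusted p = 5.36e-08) over spinal cord. Lama3, the alpha chain of the same laminin, had 4.96, 3.23 and 6.29 CPM in DRG libraries 1 to 3, 2.85, 3.13 and 3.62 CPM in spinal cord and 68.7, 68.3 and 56.6 CPM in paw. It too stood apart in paw, by 3.74 ± 0.20 over DRG and 4.34 ± 0.21 over spinal cord. Keratinocyte markers summed to 34001 to 52926 CPM in paw, 14.3 to 26.9 CPM in DRG and 31.4 to 33.9 CPM in spinal cord, and their part in these differences was not tested. The lower levels in DRG and spinal cord differed less firmly. In calls of DRG over spinal cord, Lamb3 differed by 2.22 ± 0.72 (adjusted p = 0.0231) and Lama3 by 0.60 ± 0.22 (adjusted p = 0.0349). The Lamb3 call between DRG and spinal cord was lost without DRG 1 or spinal cord 1 or 3 (adjusted p = 0.0694, 0.067 and 0.0623) and without DRG 1 and 2 together (adjusted p = 0.601). The Lama3 call between DRG and spinal cord was lost without DRG 1 or 3, spinal cord 1 or 2 or paw 1 (adjusted p = 0.0832, 0.158, 0.102, 0.101 and 0.0501) and with total counts unscaled, limma-voom or a fit on the 6 libraries of the pair (adjusted p = 0.064, 0.101 and 0.0779).

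Lama5, the alpha chain of many mature epithelial and vessel basement membranes, was also highest in paw. Its levels were 95.4, 58.3 and 69.3 CPM in DRG libraries 1 to 3, 30.4, 30.00 and 59 CPM in spinal cord and 197, 203 and 165 CPM in paw. No library of the other tissues reached the paw values, and spinal cord 3 overlapped DRG 2. Paw was higher than DRG by 1.34 ± 0.28 (adjusted p = 0.00158) and than spinal cord by 2.25 ± 0.29 (adjusted p = 6.09e-05), and DRG was higher than spinal cord by 0.91 ± 0.28 (adjusted p = 0.0201). Lama1, a chain known from embryonic basement membranes and, in the adult nervous system, from the surface of brain and cord, had the opposite order. It stood at 2.59, 2.32 and 4.51 CPM in DRG libraries 1 to 3, 5.8, 5.04 and 5.57 CPM in spinal cord and 0.0599, 0.0617 and 0 CPM in paw. The 3 tissues did not overlap, and paw held 2 reads in all against 321 in spinal cord and 197 in DRG. The read ratio of spinal cord to paw was 136 with a 95% counting interval of 37.4 to 1128, and that of DRG to paw 77.6 with a 95% counting interval of 21.2 to 646, both from Clopper-Pearson bounds that cover counting error only. Lama1 was lower in DRG than in spinal cord, with a log2 difference of −0.80 ± 0.26 (adjusted p = 0.0209). Meninges and choroid plexus markers summed to 27.4 to 49.5 CPM in spinal cord, 23.7 to 43.2 CPM in DRG and 8.5 to 13.4 CPM in paw, and their part was not tested. Most of the paw sum came from the marker Aldh1a2, which was called in no comparison. Its mean was 14 CPM in spinal cord, 11.2 in DRG and 8.9 in paw. The Lama5 call between DRG and spinal cord was lost without DRG 1 or spinal cord 1 or 2 (adjusted p = 0.0706, 0.06 and 0.0754), without DRG 1 and 2 together (adjusted p = 0.111) and with a fit on the 6 libraries of the pair (adjusted p = 0.0581). The Lama1 call between DRG and spinal cord was lost without DRG 1 or 2 or spinal cord 1 (adjusted p = 0.0855, 0.0748 and 0.0548) and without DRG 1 and 2 together (adjusted p = 0.512).

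Of the chains in laminins of nerve, muscle and vessels, Lama2, Lama4 and Lamc1 were called lower in spinal cord than in DRG and paw. Lama2, the alpha chain of Schwann cell and muscle basement membranes, had 98.6, 58.7 and 73.5 CPM in DRG libraries 1 to 3, 18.4, 17.3 and 42.9 CPM in spinal cord and 60.7, 79 and 78.5 CPM in paw. Every spinal cord library lay below every DRG and paw library, while DRG and paw overlapped. DRG exceeded spinal cord by 1.56 ± 0.36 (adjusted p = 0.00552) and paw exceeded it by 1.48 ± 0.36 (adjusted p = 0.00465), and paw and DRG differed by −0.082 ± 0.35 (adjusted p = 0.839). Lama4, a chain of vessel and nerve basement membranes, had 115, 66 and 101 CPM in DRG libraries 1 to 3, 14.5, 16.8 and 32 CPM in spinal cord and 56.8, 72.5 and 77.2 CPM in paw. It showed the same order, 2.16 ± 0.32 in DRG over spinal cord and 1.71 ± 0.32 in paw over spinal cord. Lamc1, the gamma chain of most laminins, had 237, 124 and 208 CPM in DRG libraries 1 to 3, 56.5, 58.5 and 99.8 CPM in spinal cord and 173, 213 and 213 CPM in paw. Its DRG range enclosed the paw range, with 1.41 ± 0.28 in DRG and 1.48 ± 0.28 in paw over spinal cord. Lamc3, another gamma chain, had 19.4, 10.2 and 15.7 CPM in DRG libraries 1 to 3, 10.6, 7.74 and 34.1 CPM in spinal cord and 23, 21.4 and 19.4 CPM in paw. Spinal cord 3 was above every other library of the 9, and no difference was called. A Lamc3 call between DRG and spinal cord arose without spinal cord 3 (adjusted p = 0.0274). A Lamc3 call between paw and DRG arose without spinal cord 3 (adjusted p = 0.0469). A Lamc3 call between paw and spinal cord arose without spinal cord 3 (adjusted p = 0.000964).

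The 2 broadly used beta chains parted between tissues. Lamb1 had 363, 173 and 302 CPM in DRG libraries 1 to 3, 24.1, 25.8 and 88.6 CPM in spinal cord and 77, 80.7 and 86.7 CPM in paw. DRG was highest in every library, whereas spinal cord 3 exceeded all paw libraries. DRG was higher than spinal cord by 2.60 ± 0.55 (adjusted p = 0.0045) and paw lay below DRG, with paw minus DRG at −1.78 ± 0.53 (adjusted p = 0.0156), while paw and spinal cord differed by 0.82 ± 0.53 (adjusted p = 0.184). Lamb2, a beta chain known from muscle synapses and vessels, had 207, 140.2 and 135 CPM in DRG libraries 1 to 3, 77.8, 73.1 and 144 CPM in spinal cord and 168, 197 and 194 CPM in paw. Here paw and DRG 1 were high and spinal cord 3 lay among the DRG values. For Lamb2, DRG exceeded spinal cord by 0.71 ± 0.27 (adjusted p = 0.0447) and paw exceeded it by 0.92 ± 0.27 (adjusted p = 0.00991). The Lamb1 call between paw and DRG was lost without paw 1 (adjusted p = 0.0513). A Lamb1 call between paw and spinal cord arose without spinal cord 3 (adjusted p = 0.000462). The Lamb2 call between DRG and spinal cord was lost without DRG 1 or 2, spinal cord 1 or 2 or paw 1, 2 or 3 (adjusted p = 0.154, 0.0647, 0.125, 0.154, 0.0769, 0.0589 and 0.0705), without DRG 1 and 2 together (adjusted p = 0.327) and with RLE factors, upper quartile factors, total counts unscaled, no low-count filter or a fit on the 6 libraries of the pair (adjusted p = 0.0503, 0.0594, 0.0841, 0.0569 and 0.106).

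**Figure D3:**
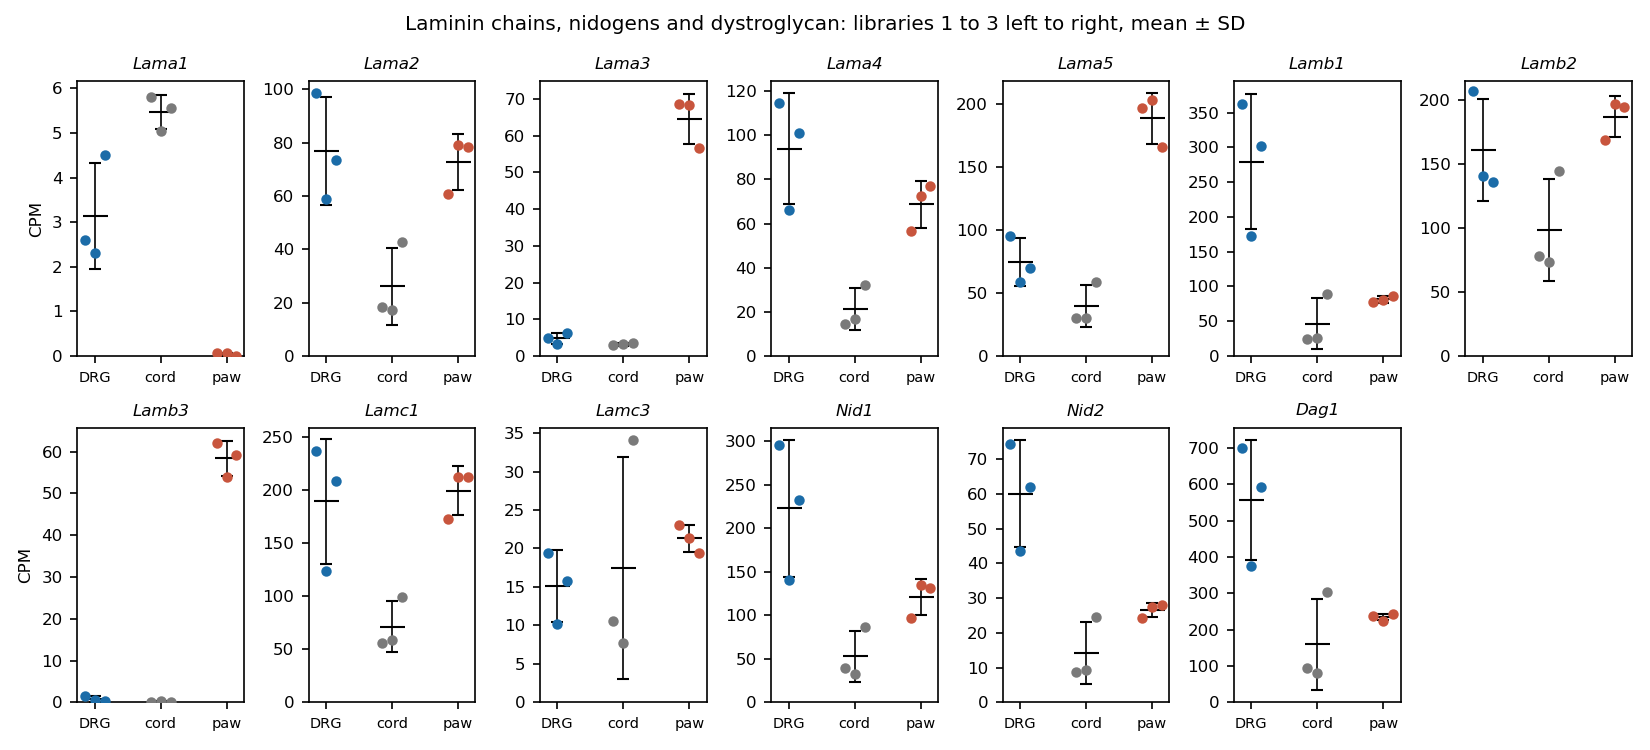
CPM of 10 laminin chains, 2 nidogens and Dag1 in DRG, spinal cord and paw; points are libraries 1 to 3 from left to right, and bars are mean ± SD (n = 3). Spinal cord 3 is the top spinal cord point for 8 of the 10 laminin chains plotted, and DRG 1 the top DRG point for 8 of 10.

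Set against each other per length, the chains made up different mixtures. Levels of different genes were compared as CPM per kilobase of the longest protein-coding transcript in GENCODE, which may differ from the gene models that were counted, and given as shares of the class total (mean ± SD of 3 libraries). Among alpha chains Lama4 had the largest share in DRG, at 50.2 ± 2.58%, against 32.8 ± 2.13% in spinal cord and 27.3 ± 3.76% in paw. Lama5 had the largest share in paw, at 39.8 ± 4.09%, against 21.2 ± 1.71% in DRG and 33.1 ± 0.748% in spinal cord. The shares of Lama3 were 14.7 ± 1.67% in paw, 1.49 ± 0.352% in DRG and 3.1 ± 0.819% in spinal cord, and that of Lama1 in spinal cord was 6.01 ± 2.1%. Among beta chains Lamb1 led in DRG with 61.9 ± 7.07%, while Lamb2 led in spinal cord with 71.2 ± 7.53% and in paw with 55.9 ± 2.46%. Lamb3 held 20.3 ± 2.25% in paw and under 1% elsewhere.

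**Figure D4:**
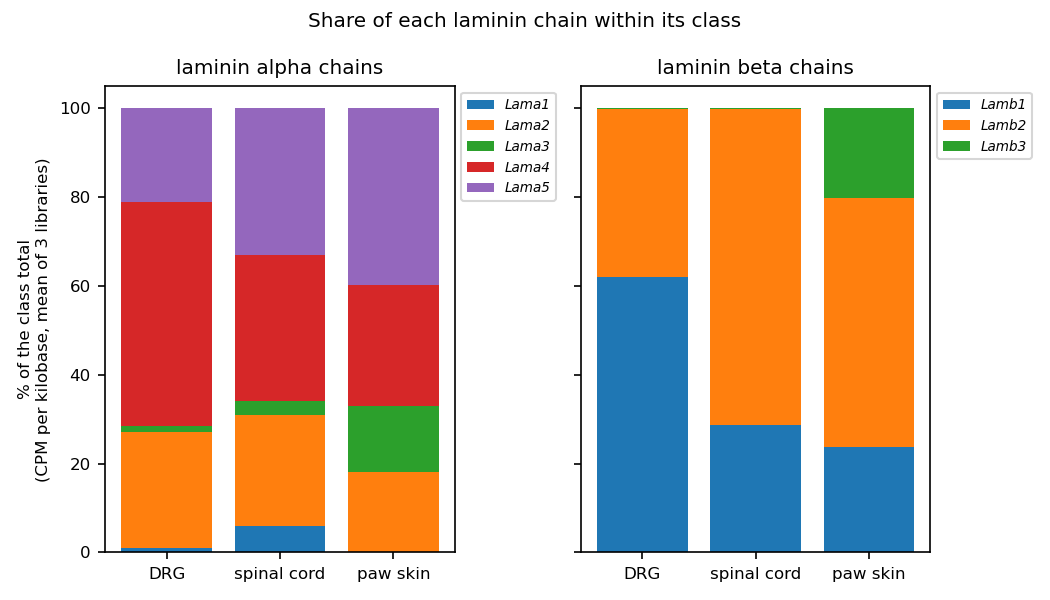
Share of each laminin chain in its class (percent of the summed CPM per kilobase, mean of 3 libraries) in DRG, spinal cord and paw skin, for alpha and beta chains. Lama4 and Lamb1 take the largest alpha and beta shares in DRG (50.2% and 61.9%), and Lama3 and Lamb3 take 14.7% and 20.3% in paw.

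Read ratios of partner or alternative chains within a library do not depend on library scaling. The ratio of Lamb2 to Lamb1 reads was 0.569, 0.811 and 0.448 in DRG, against 3.23, 2.83 and 1.63 in spinal cord and 2.18, 2.44 and 2.24 in paw. DRG was below both other tissues in every library. For Lama2 to Lama5 the ratio was 1.03, 1.01 and 1.06 in DRG, against 0.605, 0.577 and 0.727 in spinal cord and 0.309, 0.39 and 0.475 in paw. The 3 tissues did not overlap, and the DRG libraries, which differed widely in both genes, lay within a narrow range of each other. For Lama4 to Lama2 the ratio was 0.936, 0.918 and 0.983 in paw, 0.787, 0.973 and 0.747 in spinal cord and 1.16, 1.12 and 1.38 in DRG, where it lay above both others. Differences in mean log2 ratio were tested for 8 ratios in 3 tissue pairs by an exact two-sided permutation test, in which 3 against 3 libraries cannot go below 0.1. The pairs without overlap reached that value (0.15 after Benjamini-Hochberg adjustment over the 24 tests), so no difference passed 0.05.

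Both nidogens, like Lamb1, had their highest mean in DRG. Nid1 had 296, 140.3 and 233 CPM in DRG libraries 1 to 3, 39.7, 32.8 and 86.8 CPM in spinal cord and 97.2, 135 and 132 CPM in paw. Each DRG library exceeded each paw and spinal cord library, and spinal cord 3 came near the lowest paw library. DRG was higher than spinal cord by 2.07 ± 0.42 (adjusted p = 0.00336) and paw than spinal cord by 1.20 ± 0.41 (adjusted p = 0.0271), while paw minus DRG was −0.88 ± 0.41 (adjusted p = 0.0784). Nid2 had 74.3, 43.7 and 62 CPM in DRG libraries 1 to 3, 8.7, 9.19 and 24.5 CPM in spinal cord and 24.4, 27.5 and 28 CPM in paw. DRG again lay above both tissues in all libraries, by 2.10 ± 0.40 (adjusted p = 0.00195) over spinal cord, and paw minus DRG was −1.17 ± 0.38 (adjusted p = 0.0199). The ratio of Nid2 to Nid1 reads overlapped between all tissues, at 0.251, 0.311 and 0.266 in DRG, against 0.219, 0.28 and 0.282 in spinal cord and 0.251, 0.203 and 0.213 in paw. A Nid1 call between paw and DRG arose without DRG 2 or spinal cord 3 (adjusted p = 0.0394 and 0.0161) and with a fit on the 6 libraries of the pair (adjusted p = 0.0177). The Nid1 call between paw and spinal cord was lost without spinal cord 1 or 2 or paw 2 or 3 (adjusted p = 0.0803, 0.0701, 0.0641 and 0.0721). The Nid2 call between paw and DRG was lost without DRG 1 or paw 1, 2 or 3 (adjusted p = 0.0629, 0.0704, 0.0526 and 0.0549) and without DRG 1 and 2 together (adjusted p = 0.0702). A Nid2 call between paw and spinal cord arose without spinal cord 3 (adjusted p = 4.55e-05) and with upper quartile factors, DESeq2 or limma-voom (adjusted p = 0.0426, 0.0111 and 0.0205).

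Dystroglycan, the laminin receptor outside the integrin family, stood highest in DRG. Dag1 had 699, 376 and 591 CPM in DRG libraries 1 to 3, 95.9, 80.2 and 304 CPM in spinal cord and 239, 225 and 242 CPM in paw. The DRG libraries lay above all others, and spinal cord 3, at 3.45 times the mean of the other spinal cord libraries, exceeded the paw libraries. DRG was higher than spinal cord by 1.80 ± 0.51 (adjusted p = 0.0173), paw minus DRG was −1.24 ± 0.50 (adjusted p = 0.0513), and paw minus spinal cord was 0.56 ± 0.50 (adjusted p = 0.327). The Dag1 call between DRG and spinal cord was lost without DRG 1 or spinal cord 1 (adjusted p = 0.0548 and 0.0517) and without DRG 1 and 2 together (adjusted p = 0.0687). A Dag1 call between paw and DRG arose without DRG 2 or spinal cord 1, 2 or 3 (adjusted p = 0.0488, 0.0459, 0.0281 and 0.000236) and with DESeq2 or a fit on the 6 libraries of the pair (adjusted p = 0.0452 and 0.000457). A Dag1 call between paw and spinal cord arose without spinal cord 3 (adjusted p = 0.000204).

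Laminin-binding integrin alpha chains differed in order. Itga7, an alpha chain of Schwann cells and muscle, had 294, 272 and 263 CPM in DRG libraries 1 to 3, 38.2, 39.4 and 49.1 CPM in spinal cord and 81.2, 116 and 119 CPM in paw. The 3 tissues did not overlap, with DRG highest, and DRG was higher than spinal cord by 2.71 ± 0.16 (adjusted p = 6.02e-08) and paw minus DRG was −1.39 ± 0.15 (adjusted p = 3.89e-06). Itga3, found on neurons and epithelia, had 107, 134 and 117 CPM in DRG libraries 1 to 3, 78, 79.8 and 76.1 CPM in spinal cord and 60.6, 59.7 and 57.8 CPM in paw. The tissues did not overlap. DRG exceeded spinal cord by 0.61 ± 0.094 (adjusted p = 0.000162) and spinal cord exceeded paw, with paw minus spinal cord at −0.39 ± 0.094 (adjusted p = 0.00223). Itga6, the partner of Itgb4 in hemidesmosomes, had 147, 54.7 and 119.9 CPM in DRG libraries 1 to 3, 20.3, 19.3 and 42.3 CPM in spinal cord and 139, 124 and 127 CPM in paw. Paw was tight, DRG spread widely with DRG 2 lowest, and both lay above spinal cord, by 2.26 ± 0.43 (adjusted p = 0.00128) and 1.98 ± 0.42 (adjusted p = 0.00422). Within a library the ratio of Itga6 to Itga3 reads was 2.29, 2.08 and 2.2 in paw, 1.37, 0.409 and 1.02 in DRG and 0.26, 0.242 and 0.556 in spinal cord. The paw ratio exceeded those of both other tissues in every library (exact permutation p = 0.1 against each, the smallest possible).

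Collagen-binding alpha chains differed in which tissue was highest. Itga1 had 4.6, 2.46 and 4.06 CPM in DRG libraries 1 to 3, 4.05, 3.17 and 4.71 CPM in spinal cord and 17.5, 18.3 and 18.4 CPM in paw. Paw stood clear of both other tissues, which overlapped, and exceeded DRG by 2.28 ± 0.22 (adjusted p = 1.22e-06) and spinal cord by 2.19 ± 0.22 (adjusted p = 1.67e-06). Itga2, whose promoter is printed above, had 0.894, 0.627 and 1.09 CPM in DRG libraries 1 to 3, 0, 0.0933 and 0.459 CPM in spinal cord and 6.94, 5.74 and 4.71 CPM in paw. Paw was highest and spinal cord, with 10 reads in all, lowest. The rise in paw was 2.73 ± 0.43 (adjusted p = 9.97e-05) over DRG and 5.02 ± 0.55 over spinal cord, and DRG exceeded spinal cord by 2.30 ± 0.65 (adjusted p = 0.00975). Itga11, a chain of fibroblasts, had 5.21 ± 1.22 CPM in paw, 5.72 ± 0.474 in DRG and 1.51 ± 0.234 in spinal cord (SD, n = 3), with spinal cord called lowest. DRG exceeded it by 1.92 ± 0.22 and paw by 1.79 ± 0.23. Itga10, a chain known from cartilage, was the exception with spinal cord above DRG, at 8.13, 4.63 and 7.03 CPM in DRG libraries 1 to 3, 10.01, 8.16 and 17.4 CPM in spinal cord and 6.47, 10.4 and 8.72 CPM in paw. Spinal cord 3 held the highest value, and DRG minus spinal cord was −0.84 ± 0.30 (adjusted p = 0.0349). The Itga10 call between DRG and spinal cord was lost without DRG 2 or 3, spinal cord 3 or paw 3 (adjusted p = 0.125, 0.0672, 0.16 and 0.0538), without DRG 1 and 2 together (adjusted p = 0.202) and with limma-voom or a fit on the 6 libraries of the pair (adjusted p = 0.0503 and 0.0681).

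Of the 4 alpha chains that bind fibronectin and other ligands by their RGD sequence, Itga5 and Itga8 were called highest in paw. Itga5, the main fibronectin receptor chain, had 11.6, 10.6 and 11.6 CPM in DRG libraries 1 to 3, 7.25, 5.92 and 9.01 CPM in spinal cord and 45.7, 55.5 and 63.2 CPM in paw. Paw was far above the others, by 2.28 ± 0.16 (adjusted p = 7.58e-08) over DRG and 2.89 ± 0.17 (adjusted p = 1.19e-08) over spinal cord. Itga8, a chain of smooth muscle and other contractile cells, had 3.53, 3.14 and 2.67 CPM in DRG libraries 1 to 3, 3, 3.22 and 3.62 CPM in spinal cord and 18, 16.5 and 16 CPM in paw. DRG and spinal cord overlapped, and paw exceeded them by 2.43 ± 0.15 and 2.36 ± 0.15. Pericyte and smooth muscle markers summed to 1132 to 1240 CPM in paw, 173 to 224 in DRG and 150.1 to 196 in spinal cord, and their part was not tested. Itgav, the partner of several beta chains, had the smallest called differences of these 4, at 66, 49.6 and 58.4 CPM in DRG libraries 1 to 3, 70.7, 71.4 and 74.2 CPM in spinal cord and 81.5, 81.7 and 71.3 CPM in paw. DRG was called lowest, at −0.31 ± 0.11 (adjusted p = 0.0291) against spinal cord and with paw above it by 0.43 ± 0.11 (adjusted p = 0.00369). Itga2b, the platelet fibrinogen receptor chain, had 10.8, 10.6 and 9.66 CPM in DRG libraries 1 to 3, 7.85, 3.17 and 6.14 CPM in spinal cord and 7.42, 6.54 and 7.42 CPM in paw. Only DRG over spinal cord was called, at 0.86 ± 0.25 (adjusted p = 0.0123). The platelet and megakaryocyte markers summed to 10.1, 8.59 and 9.16 CPM in DRG, against 14.8, 4.62 and 4.71 in spinal cord and 54.5, 55.2 and 47.6 in paw. The paw sum was carried by Pf4 and Gp1bb, at 26.7 ± 1.84 and 25.4 ± 2.19 CPM, while the other 2 markers had lower means in paw than in DRG, Ppbp with 0.302 ± 0.162 against 0.827 ± 0.298 CPM and not called, and Gp9 with 0.0602 ± 0.00143 against 0.0813 ± 0.074 CPM and too few reads to be tested. The Itga5 call between DRG and spinal cord was lost without DRG 1 and 2 together (adjusted p = 0.0531). The Itgav call between DRG and spinal cord was lost without DRG 2 or 3 or spinal cord 1, 2 or 3 (adjusted p = 0.114, 0.0698, 0.0614, 0.0604 and 0.0785) and without DRG 1 and 2 together (adjusted p = 0.101). The Itga2b call between DRG and spinal cord was lost without DRG 1 and 2 together (adjusted p = 0.136). An Itga2b call between paw and DRG arose without spinal cord 1 or 2 (adjusted p = 0.0361 and 0.00702) and with a fit on the 6 libraries of the pair (adjusted p = 0.00427). An Itga2b call between paw and spinal cord arose without spinal cord 1 (adjusted p = 0.0314).

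Itga4 and Itga9, related alpha chains that bind VCAM1 and matrix proteins, were modest in level. Itga9 had 10.3, 6.37 and 11 CPM in DRG libraries 1 to 3, 12.7, 8.63 and 11.7 CPM in spinal cord and 23.7, 26.8 and 25.1 CPM in paw. Paw was highest in every library, by 1.45 ± 0.20 (adjusted p = 3.54e-05) over DRG and 1.20 ± 0.20 (adjusted p = 0.000151) over spinal cord. Itga4, which is common on leukocytes, had 12.4, 10.2 and 13.2 CPM in DRG libraries 1 to 3, 10.8, 6.25 and 8.21 CPM in spinal cord and 16, 13.8 and 15.6 CPM in paw. It was called lowest in spinal cord, with 0.51 ± 0.19 (adjusted p = 0.0343) in DRG and 0.85 ± 0.19 (adjusted p = 0.00123) in paw. The Itga4 call between DRG and spinal cord was lost without DRG 1 or 3 or spinal cord 2 or 3 (adjusted p = 0.0858, 0.112, 0.131 and 0.0669), without DRG 1 and 2 together (adjusted p = 0.0666) and with upper quartile factors, total counts unscaled or a fit on the 6 libraries of the pair (adjusted p = 0.0564, 0.0824 and 0.0624). An Itga4 call between paw and DRG arose without spinal cord 1 or 2 (adjusted p = 0.0496 and 0.0385) and with upper quartile factors, total counts unscaled or a fit on the 6 libraries of the pair (adjusted p = 0.0373, 0.0432 and 0.0422).

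Of the leukocyte integrins, Itgam and Itgb2 had higher mean levels per kilobase in each tissue than Itgax, Itgad, Itgal and Itgae. Itgam, the alpha chain of the complement receptor of microglia, macrophages and neutrophils, had 9.65, 12.6 and 7.33 CPM in DRG libraries 1 to 3, 35.3, 20.2 and 31.3 CPM in spinal cord and 25.8, 24.8 and 22.6 CPM in paw. DRG was lowest in every library, and the other tissues overlapped. DRG minus spinal cord was −1.55 ± 0.23 (adjusted p = 0.000155) and paw exceeded DRG by 1.30 ± 0.23 (adjusted p = 0.000287). Itgb2, the beta chain that all leukocyte-specific alpha chains but Itgae use, had 8.31, 10.8 and 7.53 CPM in DRG libraries 1 to 3, 25.4, 10.8 and 12.7 CPM in spinal cord and 21.7, 15.3 and 13.1 CPM in paw. Spinal cord 1 was highest, and DRG minus spinal cord was −0.88 ± 0.33 (adjusted p = 0.0426) and paw minus DRG 0.91 ± 0.33 (adjusted p = 0.0278). Microglia and macrophage markers summed to 275 to 307 CPM in spinal cord, 213 to 244 in paw and 78 to 108 in DRG. The markers did not share 1 order. Cx3cr1 (7.19 ± 1.94 CPM in DRG, 1.44 ± 0.127 in paw) and P2ry12 (8.78 ± 0.316 and 5.58 ± 1.5) were called lower in paw than in DRG, C1qa, Cd68 and Mrc1 were called highest in paw, and Mrc1 was called above spinal cord in DRG. The part of these cells in the Itgam and Itgb2 levels was not tested. Per read of Itgb1, Itgb2 gave 0.226, 0.0924 and 0.0761 reads in spinal cord, 0.0693, 0.0444 and 0.0372 in paw and 0.0179, 0.0278 and 0.0169 in DRG, without overlap between any tissues. Itgax, the alpha chain of dendritic cells and some macrophages, had 0.76, 1.35 and 1.04 CPM in DRG libraries 1 to 3, 0.7, 0.187 and 0.459 CPM in spinal cord and 9.1, 5.55 and 4.65 CPM in paw. Paw exceeded DRG by 2.61 ± 0.37 (adjusted p = 3.89e-05) and spinal cord by 3.84 ± 0.42 (adjusted p = 4.07e-06), and Langerhans and dendritic cell markers summed to 219 to 241 CPM in paw, 153 to 177 in DRG and 73.2 to 109.6 in spinal cord. Cd74 had the highest mean of the 3 markers in each tissue, at 216 ± 8.78, 138 ± 13.2 and 47.4 ± 22.2 CPM. Cd207 was at 12.3 ± 2.23 CPM in paw and had no read in spinal cord, and Flt3 had the opposite order, with 0.722 ± 0.26 CPM in paw, 29 ± 2.35 in DRG and 38.4 ± 3.67 in spinal cord. DRG was called above spinal cord for Itgax by 1.23 ± 0.47 (adjusted p = 0.0429), on 66 and 26 reads. An Itgam call between paw and spinal cord arose without spinal cord 2 (adjusted p = 0.0492). The Itgb2 call between DRG and spinal cord was lost without DRG 1 or 3, spinal cord 1 or paw 2 or 3 (adjusted p = 0.113, 0.123, 0.167, 0.0618 and 0.0513), without DRG 1 and 2 together (adjusted p = 0.139) and with no low-count filter, limma-voom or a fit on the 6 libraries of the pair (adjusted p = 0.057, 0.0718 and 0.0614). The Itgb2 call between paw and DRG was lost without DRG 1 or 3 or paw 1 (adjusted p = 0.0784, 0.0846 and 0.115) and without DRG 1 and 2 together (adjusted p = 0.0961). The Itgax call between DRG and spinal cord was lost without DRG 2 or 3, spinal cord 2 or 3 or paw 2 (adjusted p = 0.132, 0.0788, 0.163, 0.0749 and 0.0531), without DRG 1 and 2 together (adjusted p = 0.162) and with total counts unscaled or limma-voom (adjusted p = 0.0554 and 0.0629).

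Itgad, a relative of Itgam, was close to the floor of 3 reads per library in DRG. It had 7 reads in DRG against 32 in spinal cord and 30 in paw, and was called lower in DRG than in spinal cord, at −2.22 ± 0.62 (adjusted p = 0.0088), with paw above DRG by 2.38 ± 0.62 (adjusted p = 0.00388). Itgal and Itgae were low but above the floor, with 10 to 72 and 18 to 48 reads per library. Itgal, the alpha chain of LFA-1 on lymphocytes and other leukocytes, was lowest in spinal cord 2 and highest in spinal cord 1, at 3.6, 0.467 and 2.47 CPM in spinal cord, and Itgae, the alpha chain of T cells that settle in epithelium, ranged from 1.06 to 2.24 CPM over all libraries. Neither was called in any comparison by edgeR, and 0 of their 6 differences had an unadjusted p under 0.05. T cell markers summed to at most 1.85 CPM in any library. Itgb7, the beta chain shared by Itgae and Itga4, had 5.99 ± 0.396 CPM in paw, 4.6 ± 0.532 in DRG and 3.53 ± 0.974 in spinal cord (SD, n = 3), and paw was called above spinal cord by 0.76 ± 0.21 (adjusted p = 0.00504). The Itgad call between DRG and spinal cord was lost without DRG 1 and 2 together (adjusted p = 0.0882). An Itgal call between paw and DRG arose without spinal cord 2 (adjusted p = 0.0303) and with a fit on the 6 libraries of the pair (adjusted p = 0.0256). An Itgal call between paw and spinal cord arose without spinal cord 2 (adjusted p = 0.00615). An Itgb7 call between DRG and spinal cord arose without spinal cord 1 (adjusted p = 0.0226). An Itgb7 call between paw and DRG arose with upper quartile factors, total counts unscaled or a fit on the 6 libraries of the pair (adjusted p = 0.0409, 0.0462 and 0.048).

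Itgb2l, a relative of Itgb2, was present in DRG and spinal cord and nearly missing in paw. It had 2.01, 4.1 and 1.34 CPM in DRG libraries 1 to 3, 6.55, 1.35 and 2.12 CPM in spinal cord and 0, 0.0617 and 0.0589 CPM in paw, with 2 reads in all of paw. The read ratio to paw was 61.9 with a 95% counting interval of 16.8 to 515 for DRG and 83.5 with a 95% counting interval of 22.8 to 694 for spinal cord. DRG 2 and spinal cord 1 were the highest libraries of their tissues. The marrow neutrophil markers were highest in the same libraries, at 97.1, 223 and 81.9 CPM in DRG, against 419.6, 111 and 125 in spinal cord and 4.25, 7.84 and 8.48 in paw, and their part in the Itgb2l levels was not tested.

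Itgb1, the beta chain of most laminin and collagen receptors, had the highest level of the beta chains in all 3 tissues, at 113 ± 10.3 CPM per kilobase in DRG, against 34.6 ± 8.04 in spinal cord and 88.1 ± 5.37 in paw. Single libraries had 464, 388 and 444 CPM in DRG libraries 1 to 3, 112, 117 and 167 CPM in spinal cord and 313, 345 and 351 CPM in paw. The tissues did not overlap, with DRG above paw and paw above spinal cord. DRG exceeded spinal cord by 1.71 ± 0.15 (adjusted p = 2.05e-06) and paw exceeded it by 1.35 ± 0.15 (adjusted p = 5.20e-06), and paw minus DRG was −0.36 ± 0.15 (adjusted p = 0.0404). Itgb4, the hemidesmosome chain that Schwann cells also make, did not have its highest mean in skin. It had 396, 292 and 267 CPM in DRG libraries 1 to 3, 101, 102 and 161 CPM in spinal cord and 283, 262 and 233 CPM in paw. Paw and DRG overlapped and both lay above spinal cord, by 1.10 ± 0.20 (adjusted p = 0.000398) and 1.39 ± 0.20 (adjusted p = 0.000147), and paw minus DRG was −0.29 ± 0.20 (adjusted p = 0.191). For every read of Itgb1 there were 0.853, 0.754 and 0.602 reads of Itgb4 in DRG, against 0.897, 0.872 and 0.963 in spinal cord and 0.905, 0.762 and 0.665 in paw, so that DRG and paw overlapped in this ratio as well. The hemidesmosome collagen Col17a1 stood at 662 ± 44.5 CPM in paw, 0.772 ± 0.116 in DRG and 0.35 ± 0.105 in spinal cord (SD, n = 3). The Itgb1 call between paw and DRG was lost without DRG 1 or 3, spinal cord 2 or paw 1, 2 or 3 (adjusted p = 0.114, 0.0914, 0.0704, 0.122, 0.083 and 0.0591), without DRG 1 and 2 together (adjusted p = 0.108) and with RLE factors, upper quartile factors or total counts unscaled (adjusted p = 0.0567, 0.161 and 0.17).

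The beta chains that pair with Itgav had separate orders. Itgb6, an epithelial chain that activates TGF-beta, had 1.43, 2.65 and 1.93 CPM in DRG libraries 1 to 3, 0.1, 0.0933 and 0.0574 CPM in spinal cord and 16.6, 20.6 and 25.3 CPM in paw. Paw was highest without overlap, and spinal cord held 5 reads in all. The paw level exceeded that of DRG by 3.38 ± 0.23 (adjusted p = 6.94e-08), and DRG exceeded spinal cord by 4.45 ± 0.44 (adjusted p = 5.43e-06). Itgb5 had 123, 90.9 and 94.3 CPM in DRG libraries 1 to 3, 74.5, 80.3 and 95.4 CPM in spinal cord and 176, 154 and 153 CPM in paw. Here too paw was highest, by 0.65 ± 0.13 (adjusted p = 0.000771) over DRG and 0.95 ± 0.13 (adjusted p = 3.87e-05) over spinal cord. Itgb8, another activator of TGF-beta, had 8.18, 3.86 and 6.64 CPM in DRG libraries 1 to 3, 1.95, 2.1 and 3.67 CPM in spinal cord and 10.8, 12.1 and 11.6 CPM in paw. In calls for Itgb8, paw exceeded DRG by 0.88 ± 0.27 (adjusted p = 0.0105) and DRG exceeded spinal cord by 1.29 ± 0.30 (adjusted p = 0.00296). Itgb3, the partner of Itga2b in platelets and of Itgav elsewhere, had 33.5, 24 and 34.2 CPM in DRG libraries 1 to 3, 9.15, 5.46 and 10.2 CPM in spinal cord and 9.46, 10.4 and 14.8 CPM in paw. DRG was highest in every library, by 1.89 ± 0.25 (adjusted p = 6.57e-05) over spinal cord, and paw minus DRG was −1.40 ± 0.24 (adjusted p = 0.000264). An Itgb5 call between DRG and spinal cord arose without DRG 2 or spinal cord 3 (adjusted p = 0.046 and 0.0251). The Itgb8 call between paw and DRG was lost without DRG 1 and 2 together (adjusted p = 0.051). An Itgb3 call between paw and spinal cord arose without spinal cord 3 (adjusted p = 0.0377).

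Of the 4 genes named after an integrin that are not integrin chains, Itgb1bp2 is known as melusin, a protein of striated muscle. It had 0.804, 1.45 and 0.248 CPM in DRG libraries 1 to 3, 0.35, 0.28 and 0.23 CPM in spinal cord and 25.3, 42.6 and 35.7 CPM in paw. Paw was highest, by 5.36 ± 0.38 (adjusted p = 2.54e-07) over DRG and 6.87 ± 0.45 (adjusted p = 1.12e-07) over spinal cord, and DRG 3 was lowest among the DRG libraries. Skeletal muscle markers, at 10794, 10347 and 13013 CPM in paw and 509, 784 and 25.3 CPM in DRG, had DRG 2 highest and DRG 3 lowest too, and their part was not tested. Itgb1bp3, an older name that the RefSeq table lists for Nmrk2, had 0.179, 1.79 and 0 CPM in DRG libraries 1 to 3, 1, 0.373 and 0.517 CPM in spinal cord and 2.16, 1.79 and 3.59 CPM in paw, of which DRG 2 held nearly all DRG reads, and was not called. Itgb1bp1, which binds the tail of Itgb1, had 19.5 ± 1.86 CPM in paw, 30.8 ± 1.62 in DRG and 25.3 ± 3.33 in spinal cord (SD, n = 3) and was called lowest in paw, with −0.66 ± 0.12 (adjusted p = 0.000296) against DRG and −0.38 ± 0.12 (adjusted p = 0.0119) against spinal cord. Itgb3bp, a centromere protein, had 4.78 ± 0.985 CPM in paw, 8.22 ± 0.409 in DRG and 4.41 ± 0.187 in spinal cord and was called highest in DRG, by 0.90 ± 0.17 (adjusted p = 0.000724) over spinal cord. An Itgb1bp2 call between DRG and spinal cord arose without DRG 3 or paw 1 (adjusted p = 0.00449 and 0.0478) and with DESeq2 (adjusted p = 0.00707). An Itgb1bp3 call between DRG and spinal cord arose without DRG 2 (adjusted p = 0.0249) and without DRG 1 and 2 together (adjusted p = 0.0136). An Itgb1bp3 call between paw and DRG arose without DRG 2 (adjusted p = 0.000229), without DRG 1 and 2 together (adjusted p = 0.000511) and with limma-voom (adjusted p = 0.0115). An Itgb1bp3 call between paw and spinal cord arose without DRG 2 or 3 (adjusted p = 0.00295 and 0.0187), without DRG 1 and 2 together (adjusted p = 0.00191) and with DESeq2 or a fit on the 6 libraries of the pair (adjusted p = 0.0494 and 0.002). An Itgb1bp1 call between DRG and spinal cord arose without spinal cord 2 or paw 1 (adjusted p = 0.0338 and 0.0367) and with limma-voom or a fit on the 6 libraries of the pair (adjusted p = 0.0467 and 0.044). The Itgb1bp1 call between paw and spinal cord was lost without spinal cord 1 or 2 (adjusted p = 0.0562 and 0.0532).

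Libraries of the same tissue differed for many of the 45 genes. Spinal cord 3 was the highest spinal cord library for 26 of the 45 genes and for 9 of 11 laminin chains, while 34.7% of all tested genes were highest there. Its level was 3.73 times the mean of the other spinal cord libraries for Lamc3, 3.55 times for Lamb1, 3.45 times for Dag1, 2.73 times for Nid2 and 2.4 times for Lama2. Itgb2, Itga3, Itga4 and Itgb1bp1 were not raised there, at 0.704, 0.964, 0.965 and 0.792 times. DRG 1 was the highest DRG library for 28 genes (62.2%), against 29.1% of all genes, and DRG 2 the lowest for 27 (60%), against 32.9%. In DRG 2 Itga6 was at 0.41, Lamb1 at 0.519, Nid1 at 0.53 and Lamc1 at 0.555 times the mean of DRG 1 and 3. Schwann cell markers summed to 27762, 20840 and 21308 CPM in DRG 1 to 3 and 3097, 3290 and 8533 CPM in spinal cord 1 to 3, and fibroblast markers to 1822, 1263 and 1263 and 275, 223 and 674 CPM, so both lists were highest in DRG 1 and in spinal cord 3. Their part in the spread was not tested. Without spinal cord 3, 31 genes in place of 26 were called higher in paw than in spinal cord, among them Dag1, Lamb1, Lamc3, Nid2 and Itgb3, and 26 in place of 27 higher in DRG than in spinal cord. Over all fits with 1 library left out, the genes called higher in DRG than in spinal cord numbered 21 to 27.

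**Figure D5:**
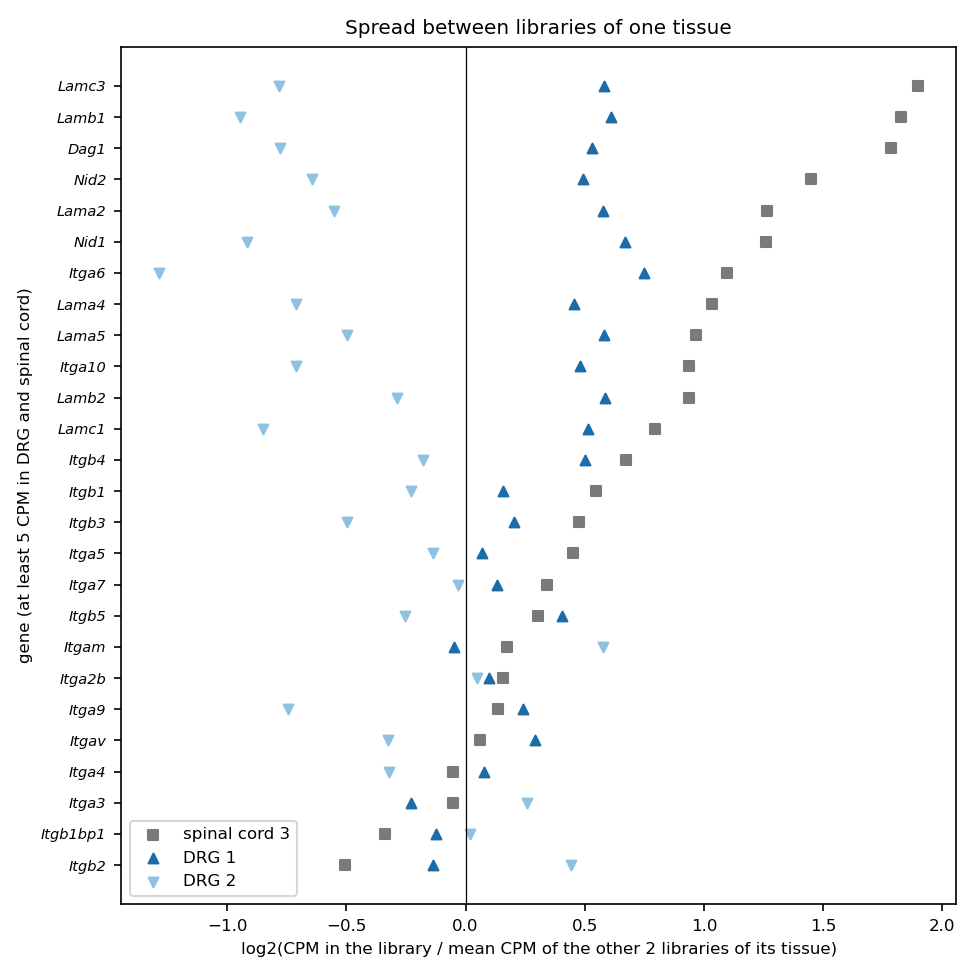
For the 26 genes with a mean of at least 5 CPM in DRG and in spinal cord, log2 of the CPM in spinal cord 3 (squares), DRG 1 (upward triangles) and DRG 2 (downward triangles) over the mean of the other 2 libraries of the same tissue. Lamc3, Lamb1 and Dag1 lie highest in spinal cord 3, and Itga6, Lamb1 and Nid1 lowest in DRG 2.

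Other genes of the pathway were counted in 5 lists, chosen with earlier results of these data known, of which all 93 entries matched a symbol. The adhesion complex inside the cell joins integrin tails to actin, and its list had 28 members. They included the membrane proteins Cd9, Cd151 and Cd47, and Cd151 was also on the list of hemidesmosome partners. In DRG against spinal cord, 18 (64.3%) were called higher and 6 (21.4%) lower in DRG, where 29.0% and 30.6% of all genes were. Between paw and DRG, 4 (14.3%) were higher and 16 (57.1%) lower in paw (all genes 39.7% and 40.8%), and in paw against spinal cord 9 (32.1%) were higher and 12 (42.9%) lower (all genes 39.9% and 41.7%). Its median log2 fold changes were 0.69, −0.52 and −0.099, where those of all genes were −0.023, −0.019 and −0.025. The kinase Ptk2b rose by 2.73 ± 0.17 (adjusted p = 1.36e-07) and the tetraspanin Cd9 by 2.51 ± 0.25 (adjusted p = 1.13e-05) in DRG over spinal cord, and the kinase Src was lower in DRG (−0.50 ± 0.10). In paw against DRG, Parvb, an integrin-linked kinase partner (−2.79 ± 0.19), and Tln2, a talin that activates integrins (−2.56 ± 0.15), were lower, and the actin crosslinker Actn4 was higher (1.18 ± 0.11). In paw against spinal cord the kinase Fyn (−1.85 ± 0.082) and Parva (−1.85 ± 0.14) were lower. Vcl, which reinforces the link to actin, was at 149.7 ± 8.97 CPM in paw and 181 ± 32.2 in DRG and not called (adjusted p = 0.125).

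The hemidesmosome partners were 6 genes. In DRG against spinal cord, 4 (66.7%) were called higher and 0 lower in DRG, where 29.0% and 30.6% of all genes were. Between paw and DRG, 3 (50%) were higher and 3 (50%) lower in paw (all genes 39.7% and 40.8%), and in paw against spinal cord 5 (83.3%) were higher and 0 lower (all genes 39.9% and 41.7%). The counts of 0 are from edgeR, and 0 genes were lower there at an unadjusted p under 0.05 as well. Median log2 fold changes of the list were 1.24, 4.59 and 5.92 in that order of comparisons. Krt5 and Krt14, the basal keratins, stood above DRG in paw by 11.54 ± 0.28 (adjusted p = 1.71e-11) and 11.36 ± 0.47 (adjusted p = 6.20e-09). The linker gene Dst, which has neuronal and epidermal isoforms that gene counts do not separate, was lower in paw than in DRG, at −1.68 ± 0.16 (adjusted p = 1.05e-06), and had 383 ± 39.1 CPM in paw, 1223 ± 243 in DRG and 469 ± 47 in spinal cord (SD, n = 3). In DRG over spinal cord, Cd151, a tetraspanin bound to laminin receptors, differed by 2.30 ± 0.13 (adjusted p = 4.98e-08) and the linker Plec by 1.55 ± 0.20 (adjusted p = 5.40e-05).

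The list of other basement membrane genes held 19. In DRG against spinal cord, 10 (52.6%) were called higher and 3 (15.8%) lower in DRG, where 29.0% and 30.6% of all genes were. Between paw and DRG, 9 (47.4%) were higher and 8 (42.1%) lower in paw (all genes 39.7% and 40.8%), and in paw against spinal cord 11 (57.9%) were higher and 2 (10.5%) lower (all genes 39.9% and 41.7%). Shares in paw against DRG lay near the background. Median log2 fold changes of the list were 0.49, 0.22 and 1.15 in that order of comparisons. Col7a1, the anchoring fibril collagen of skin, was higher in paw by 3.06 ± 0.15 (adjusted p = 4.02e-09) over DRG and 3.85 ± 0.16 (adjusted p = 7.42e-10) over spinal cord, and the collagen IV chain Col4a6 by 5.84 ± 0.33 and 2.80 ± 0.26. Smoc2, a matrix protein that binds calcium, was higher in DRG, exceeding spinal cord by 3.66 ± 0.50 (adjusted p = 0.000388). Hspg2, the basement membrane proteoglycan perlecan, had 938, 609 and 707 CPM in DRG libraries 1 to 3, 88.1, 85.3 and 341 CPM in spinal cord and 252, 312 and 284 CPM in paw. Spinal cord 3 again stood above the other spinal cord libraries, and paw minus spinal cord was not called at 0.72 ± 0.53 (adjusted p = 0.239). That fit includes spinal cord 3, and no result for Hspg2 without it is given here. Sparc, which binds collagen IV, was lower in paw than in DRG, at −1.73 ± 0.16 (adjusted p = 9.16e-07).

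Other integrin ligands were 19 genes. In DRG against spinal cord, 6 (31.6%) were called higher and 9 (47.4%) lower in DRG, where 29.0% and 30.6% of all genes were. Between paw and DRG, 11 (57.9%) were higher and 5 (26.3%) lower in paw (all genes 39.7% and 40.8%), and in paw against spinal cord 12 (63.2%) were higher and 5 (26.3%) lower (all genes 39.9% and 41.7%). The share of higher calls in DRG over spinal cord lay near the background. Median log2 fold changes of the list were −0.18, 1.34 and 1.19 in that order of comparisons. Vcam1, the ligand of Itga4, was lower in DRG than in spinal cord at −2.00 ± 0.13 (adjusted p = 1.20e-07), as was vitronectin, Vtn, at −1.08 ± 0.22 (adjusted p = 0.00193). Spp1, osteopontin, was higher in DRG, exceeding spinal cord by 1.26 ± 0.14 (adjusted p = 1.15e-05), and lower in paw than in DRG (−3.67 ± 0.15). Thbs1, a thrombospondin, was higher in paw by 3.18 ± 0.41 (adjusted p = 0.000111) over DRG and 4.73 ± 0.44 (adjusted p = 1.42e-05) over spinal cord, Npnt, the ligand of Itga8, by 3.22 ± 0.25 over DRG, and Postn by 7.16 ± 0.24 over spinal cord. Cdh1, the ligand of Itgae, had 303 ± 48.5 CPM in paw, 299 ± 46 in DRG and 23.4 ± 22.9 in spinal cord and was not called between paw and DRG (adjusted p = 0.982). Fn1, fibronectin, was at 149 ± 74.9 CPM in DRG and 85.6 ± 37.4 in spinal cord and not called (adjusted p = 0.116).

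Dystroglycan partners and enzymes that add its laminin-binding sugars were 21 genes. In DRG against spinal cord, 10 (47.6%) were called higher and 1 (4.76%) lower in DRG, where 29.0% and 30.6% of all genes were. Between paw and DRG, 7 (33.3%) were higher and 11 (52.4%) lower in paw (all genes 39.7% and 40.8%), and in paw against spinal cord 10 (47.6%) were higher and 9 (42.9%) lower (all genes 39.9% and 41.7%). Shares in paw against spinal cord lay near the background. Median log2 fold changes of the list were 0.35, −0.87 and 0.42 in that order of comparisons. Sgca, a sarcoglycan of muscle, was higher in paw than in spinal cord by 5.68 ± 0.31 (adjusted p = 2.19e-08). Skeletal muscle markers were likewise highest in paw, as given above. Large and B3gnt1, which act in dystroglycan glycosylation, were lower in paw than in DRG, at −2.69 ± 0.11 (adjusted p = 6.88e-10) and −1.89 ± 0.11 (adjusted p = 1.50e-08). Sntb1, a syntrophin, was higher in DRG, exceeding spinal cord by 3.14 ± 0.63 (adjusted p = 0.00284), and Dmd, dystrophin, had 94.2 ± 7.76 CPM in paw, 93.2 ± 8.04 in DRG and 66.7 ± 10.6 in spinal cord and was not called between paw and DRG (adjusted p = 0.914).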

How the data were processed

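RNA was measured in 9 libraries, 3 per tissue, grouped by the tissue in their titles. Per the labels' protocols, libraries were made from oligo-dT selected RNA with a stranded kit. The tools named, per the submitters' processing notes, are bcl2fastq, TopHat2 and HTSeq, with the build mm9. Versions, gene models and the setting for strand were not stated there, so genes that overlap or lie antisense are uncertain. What the authors deposited are whole-number read counts per gene symbol, with 5 summary rows that stayed out of library sizes and tests (42.9 to 43.3% of reads in DRG, 46.2 to 47.7% in spinal cord, 58.1 to 59.3% in paw, mostly reads with several alignments, 31.9 to 47.6% per library).

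From these counts, edgeR 4.0.16 in R 4.3.3 was fitted to all 9 libraries with tissue as the factor (6 residual degrees of freedom), filterByExpr by tissue, TMM scaling, glmQLFit (robust) and glmQLFTest, with Benjamini-Hochberg adjustment over 16091 genes. SE was taken as |log2 fold change| over the root of F. Ratios were tested with scipy 1.17.1 by exact permutation. The genes and lists were chosen with earlier results of these data known. The genes named are all 45 of the set and up to 4 per list and comparison (the 2 largest calls in the main direction, the call in the other direction and the uncalled gene with the highest levels); Col17a1 and Hspg2 values per library were added after the values were seen. Replicate libraries were further apart than sampling noise (chi-square over its degrees of freedom 7.3 to 36.7), and each was counted separately. This spread does not show that they came from separate mice. The fit was tested on simulated data for DRG against spinal cord, paw against DRG and paw against spinal cord. It recovered 33.3, 50 and 35.8% of 1.5-fold changes, 89.1, 75 and 78.8% of 2-fold changes and 98.4, 95.7 and 98.5% of 4-fold changes. Of the calls, 10 of 152, 11 of 162 and 9 of 151 were false. Far fewer genes were changed in the simulated data than were called in the real data. For DRG against spinal cord, 75, 64 and 61 of 15966 genes were changed 1.5, 2 and 4-fold, against 59.6% called. The rates of recovered and false calls therefore do not carry over to the real comparisons. A gene that was not called may still differ between tissues. The alternatives were RLE, upper quartile and no scaling, no filter, DESeq2 1.42.0, limma-voom (limma 3.58.1), fits on 6 libraries, a replicate block, and libraries left out. Protein sequences were not used here. Results for some genes and ratios are not reported here.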

Additional observations from a re-analysis of the deposited data

How the results depend on the processing

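Over the 45 genes, 3 comparisons and the alternatives run, 2426 repeated values were obtained. Of these 2259 stayed on the same side of the threshold, 107 lost a call, 60 gained a call, and no called fold change changed sign. The genes and libraries concerned are named in the text above. Upper quartile factors and unscaled totals moved the median of all genes in paw over DRG by 0.12 and 0.11 (log2), and other scaling shifts were smaller than 0.1. Genes called higher in DRG than in spinal cord numbered 27, but 23 with unscaled totals and 21 to 27 with 1 library left out. The number of genes lower in DRG than in spinal cord was 6, but 3 in a fit on the 6 libraries of the pair, 2 without DRG 1 and 2 together, and 3 to 6 with 1 library left out (3 without DRG 3 or spinal cord 1). The number highest in DRG and called against both was 7, but 11 in fits on 6 libraries. For spinal cord that number was 1, but 0 without DRG 1 and 2 together and 0 to 2 with 1 library left out (0 without DRG 1, DRG 2 or spinal cord 1, and 2 without spinal cord 2). The cause was not tested.

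Log2 ratios within a library kept their sign except for small differences. With 1 library left out, Itgb4/Itgb1 in paw minus DRG ran from −0.057 to 0.19, Lamb2/Lamb1 in paw minus spinal cord from −0.40 to 0.090, and Nid2/Nid1 in DRG minus spinal cord from −0.030 to 0.16. These pairs overlapped in the full data. An added read on both counts reversed no ratio.

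The titles number the libraries 1 to 3 in each tissue, and nothing says that a number marks an animal. Same-numbered libraries of different tissues had correlations of deviations from their tissue means of −0.13 to 0.27 over 9 pairs, and not every pair exceeded 0.1. Libraries with different numbers had correlations of −0.447 to 0.341 over 18 pairs. These ranges overlap, so they cannot decide whether a number marks an animal, and the numbers were not taken to pair the samples. With a replicate block, 26 of the 45 were called higher and 6 lower in DRG against spinal cord, 19 and 11 in paw against DRG, and 28 and 4 in paw against spinal cord. Under the block calls arose for Itgb1bp2 between DRG and spinal cord (adjusted p = 0.0403), Dag1 between paw and DRG (adjusted p = 0.0373), Itga4 between paw and DRG (adjusted p = 0.0493), Itgb3 between paw and spinal cord (adjusted p = 0.0192) and Nid2 between paw and spinal cord (adjusted p = 0.034), and calls were not made for Lama3 between DRG and spinal cord (adjusted p = 0.0564) and Lamb2 between DRG and spinal cord (adjusted p = 0.0548).

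Depth limits genes under about 0.185 CPM, where 3 reads or fewer were counted in a library. Reads were few, among others, for Itgad, for Itgb6, Lamb3, Itga2 and Itgb1bp2 in spinal cord, for Itgb1bp3 in some DRG libraries, and for Lama1 and Itgb2l in paw. The fitted fold changes that rest on these reads are uncertain, and their SE did not always show it. In paw against spinal cord the SE was 0.51 for Lama1 and 0.53 for Lamb1, which had many reads. The counting interval of the Lama1 read ratio of spinal cord to paw nevertheless ran from 37.4 to 1128.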
